A study of Mus musculus with 12 samples.

Results

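The 40 genes described here are the protein-coding mouse genes whose symbols begin with Psma, Psmb, Psmc or Psmd followed by a number, out of 56941 genes counted in each library. They encode the proteasome and a few proteins with related names. By role they fall into 7 alpha ring subunits (Psma1 to Psma7), 4 non-catalytic beta subunits (Psmb1 to Psmb4), 3 catalytic beta subunits (Psmb5, Psmb6 and Psmb7), 3 immunoproteasome subunits (Psmb8, Psmb9 and Psmb10), 6 ATPases (Psmc1 to Psmc6), 11 non-ATPase subunits of the regulatory particle (Psmd1, Psmd2, Psmd3, Psmd4, Psmd6, Psmd7, Psmd8, Psmd11, Psmd12, Psmd13 and Psmd14) and 3 chaperones of its base (Psmd5, Psmd9 and Psmd10). The remaining 3 were the testis subunit Psma8, the thymus subunit Psmb11 and Psmc3ip, a meiotic recombination factor that carries the symbol but is no proteasome subunit. Of the 40 genes, 38 passed the filter on low counts and were tested, and Psma8 and Psmb11 did not pass it.

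Cerebellar RNA came from C57BL/6J wild-type (WT) mice and from heterozygous Atxn1 154Q/2Q knock-in littermates, called SCA1 mice, which carry an expanded CAG repeat in 1 copy of their own Atxn1 gene, so that no transgene promoter restricts the allele to a cell type. Sedentary and exercise mice of both genotypes gave 4 groups of 3 (WT sedentary, WT exercise, and the same for SCA1), and each library was a separate mouse of 16 weeks at the end of the exercise period. Exercise mice lived alone with a running wheel for 12 weeks from the age of 4 weeks, while sedentary mice were kept in groups, so that running and housing cannot be told apart. The study removed the wheels before behavioral testing and took tissue after the last test, so running had ended days before sampling. Both sexes were used, and the labels do not give the sex of a mouse.

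The proteasome is the main protease for proteins tagged with ubiquitin in the cytosol and nucleus. Its core particle is a barrel of alpha and beta rings with the cutting sites inside, and its regulatory particle binds, unfolds and feeds in the substrate. Nuclear inclusions of expanded ataxin-1 in SCA1 are known to contain ubiquitin and proteasome proteins, and interferon replaces the 3 catalytic subunits with their immunoproteasome counterparts in many cells. The transcription factor Nfe2l1 is known to raise proteasome genes through antioxidant response elements when proteasome activity is low.

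Stretches of 6 promoter windows are shown because they hold the letters that these known regulators bind, in 2 catalytic subunits, 2 alpha subunits and a lid subunit. A script searched the 250 bases before the start of the main transcript of each gene, on both strands, for the core of the antioxidant response element, TGACNNNGC, and for an interferon response element, GAAANNGAAA. The antioxidant core was found in 6 of the 40 promoters, those of Psmb5, Psmb6, Psmc6, Psmd7, Psmd9 and Psmd12, against 9.69% of 21770 promoters of protein-coding genes. The interferon letters were found in 6 of the 40, those of Psma4, Psma5, Psmb3, Psmd4, Psmd7 and Psmd9, against 3.32% of all promoters. Neither was found in the 250 bases before Psmb8, Psmb9 or Psmb10. The stretches are read 5′ to 3′ on the strand of the gene from GRCm39, with the matched letters in capitals, and in Psmd7 both matches lie on the opposite strand, do not overlap each other and are printed as the reverse complement of the letters searched. The first 2 and the first Psmd7 stretch hold the antioxidant core, and the other 3 the interferon letters.
Psmb5, chr14:54855482-54855519, minus strand: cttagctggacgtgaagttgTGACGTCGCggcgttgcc
Psmb6, chr11:70416154-70416182, plus strand: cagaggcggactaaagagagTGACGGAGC
Psma4, chr9:54857850-54857899, plus strand: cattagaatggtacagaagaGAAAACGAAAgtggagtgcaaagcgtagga
Psma5, chr3:108163922-108163971, plus strand: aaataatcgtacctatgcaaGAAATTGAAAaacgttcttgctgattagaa
Psmd7, chr8:108315194-108315242, minus strand: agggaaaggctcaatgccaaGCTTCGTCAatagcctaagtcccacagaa
Psmd7, chr8:108315151-108315200, minus strand: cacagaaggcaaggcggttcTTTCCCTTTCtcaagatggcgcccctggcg
The matches describe these letters only, and binding was not measured.

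Each library held between 20556802 and 32127508 read pairs counted on genes on the reverse strand, and values are CPM, counts scaled to the size of the library by TMM. Values per mouse are given in the order 116, 117, 192 for WT sedentary, 121, 197, 201 for WT exercise, 16, 194, 195 for SCA1 sedentary and 55, 122, 198 for SCA1 exercise mice. The libraries of SCA1 sedentary mouse 16 and SCA1 exercise mouse 55 stood apart, with 6.38% and 6.33% of read pairs mapping to more than 1 place against 2.08% to 3.46% in the others, and with 39.3% and 44.1% of pairs without a gene against 46.0% to 58.7%. Their summed oligodendrocyte markers were 6130 and 4978 CPM against 2206 to 3693 elsewhere. The median log2FC of the proteasome genes in each comparison is given with and without these 2 libraries. The Purkinje cell genes Pcp4 and Calb1 were DEGs (edgeR adjusted p under 0.05 and absolute log2FC over 0.5) in SCA1 sedentary against WT sedentary mice, with log2FC of −1.17 and −0.82. Summed CPM of the chromosome Y genes Ddx3y, Uty, Kdm5d and Eif2s3y was 223 to 264 in all 3 WT sedentary mice and under 0.5 in WT exercise mouse 201, SCA1 sedentary mouse 194 and SCA1 exercise mice 55 and 122, so the groups were unbalanced for it. With it as a covariate the median log2FC of the proteasome genes was −0.21 for exercise in WT mice, −0.02 for genotype at rest, 0.17 between exercised genotypes and 0.24 for the interaction, and none was called. Purkinje markers summed to 3859 to 7289 CPM and granule cell markers to 1180 to 2444 CPM over the 12 libraries. In bulk tissue, fewer cells of a type and less RNA per cell cannot be told apart.

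Levels per length differed between the constitutive subunits. Per kilobase of merged exon, the 31 constitutive subunits ranged from 2.74 CPM for Psmb2 to 34.5 CPM for Psmd2, a span of 12.6-fold, with a median of 10.8. Psmd2, which binds ubiquitin-like domains of delivery proteins, was also the highest per kilobase of the main transcript at 57.8 CPM, and Psmb2 again the lowest at 6.39 CPM, a span of 9.05-fold. In the other roles the highest and lowest genes per kilobase of merged exon were Psma6 (19.2 CPM) and Psma3 (5.87) in the alpha ring, Psmb4 (17.9) among the non-catalytic beta subunits, Psmb6 (22.0) and Psmb5 (8.90) among the catalytic ones, Psmc3 (25.6) and Psmc2 (8.38) among the ATPases and Psmd14 (5.07) at the low end of the non-ATPase subunits. The order within a role depends on which length is used, since per kilobase of the main transcript the alpha ring ran from Psma7 to Psma2, the catalytic subunits from Psmb7 to Psmb5 and the ATPases from Psmc5 to Psmc2. Of the immunoproteasome genes, Psmb8 (0.365 CPM per kilobase of merged exon) and Psmb9 (0.185) were below every constitutive subunit, and Psmb10 (5.35) was above Psmb2 and Psmd14. The chaperones of the base were at 3.99 for Psmd5, 2.505 for Psmd10 and 2.05 for Psmd9, all below Psmb10 per kilobase of merged exon. This order too depends on the length used. Per kilobase of the main transcript, Psmb10 was above Psmb2 and Psmd10 but below Psmd14, Psmd5 and Psmd9. In the annotation, Psmb5 shares 6.41% of the exon bases of its main transcript with Mir686 on the same strand and Psmd1 8.97% with Gm21972, and read pairs there cannot be given to 1 gene.

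**Figure D1:**
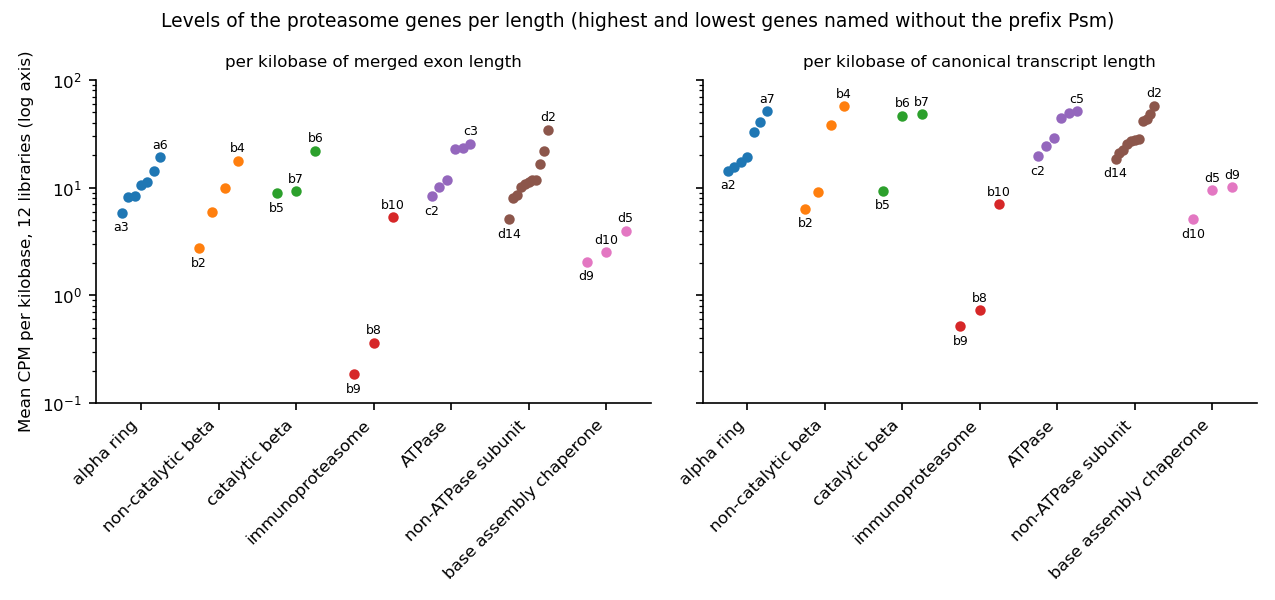
Mean CPM per kilobase over 12 libraries on a log axis for each proteasome gene by role, per kilobase of merged exon on the left and of the main transcript on the right, with the highest and lowest gene of each role named. Psmd2 is highest and Psmb9 lowest of the roles drawn on both lengths.

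Psma8, the testis alpha subunit, had 2 to 15 counts per library. Psmb11, the beta subunit of cortical thymus, had 0 counts in 9 of 12 libraries and at most 7 in any other. Psmc3ip stood at 1.74, 1.495 and 1.85 CPM in the WT sedentary and 1.62, 1.88 and 1.62 in the WT exercise mice, and at 0.847, 2.97 and 1.59 in the SCA1 sedentary and 1.55, 2.09 and 2.14 CPM in the SCA1 exercise mice. Its 4 groups overlapped.

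The proteasome genes moved together from mouse to mouse. Across the 12 libraries, log2 CPM of the 465 pairs among the 31 constitutive subunits had a median Pearson r of 0.736, from −0.204 to 0.984, and 460 pairs were above 0. The pairs share the same 12 libraries and their composition, so this describes the libraries. No such r of other genes is given beside it. The genes least like the others were the ATPase Psmc6, with a median r of 0.19, the alpha subunit Psma4 at 0.44 and the non-ATPase subunit Psmd11 at 0.45.

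The median over the 38 tested genes of log2(CPM + 0.5) minus each gene's own mean gives the shift of a library. It was 0.22, −0.01 and 0.07 in WT sedentary mice, −0.08, −0.15 and −0.16 in WT exercise mice, 0.33, −0.10 and −0.17 in the SCA1 sedentary mice and 0.14, −0.09 and 0.02 in the SCA1 exercise mice. Each WT exercise mouse was below each WT sedentary mouse, and the SCA1 sedentary group spanned both extremes of the 12. The same median over all tested genes stayed between −0.02 and 0.01.

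**Figure D2:**
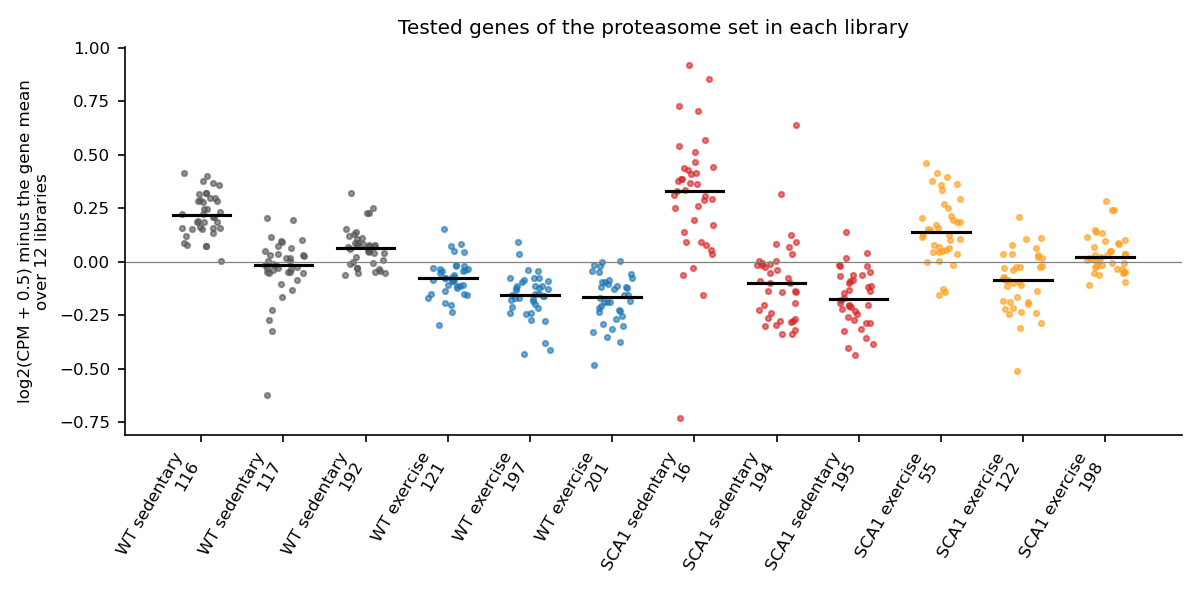
Each point is 1 of the 38 tested genes in 1 library, as log2(CPM + 0.5) minus the mean of that gene over 12 libraries, with the libraries grouped by genotype and activity. The highest medians are those of SCA1 sedentary mouse 16 (0.33) and WT sedentary mouse 116 (0.22), and the 3 WT exercise mice lie below 0.

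In mouse 16, 36 of the 38 genes were higher than the mean of its 2 group mates, by a median of 0.49 on the log2 scale, while 51.6% of all tested genes were higher, by a median of 0.02. The largest of these differences were in Psmb5 (1.14), Psmb10 (1.02), Psmb8 (0.92) and Psmb4 (0.87). In mouse 55, 33 of 38 genes were higher than in its group mates, by a median of 0.16, against 51.4% of all tested genes. In WT sedentary mouse 116 all 38 were, by a median of 0.18, against 52.0% of all tested genes. The median over all tested genes was 0.01 in both. Those 3 libraries also had the smallest shares of read pairs without a gene, at 39.3%, 44.1% and 46.0%, and WT exercise mice 197 and 201 and SCA1 sedentary mouse 195, the 3 lowest for the proteasome genes, had the largest at 56.5%, 56.8% and 58.7%. The part of this share in the proteasome levels was not tested beyond the fit that takes it as a covariate, given with the comparisons.

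**Figure D3:**
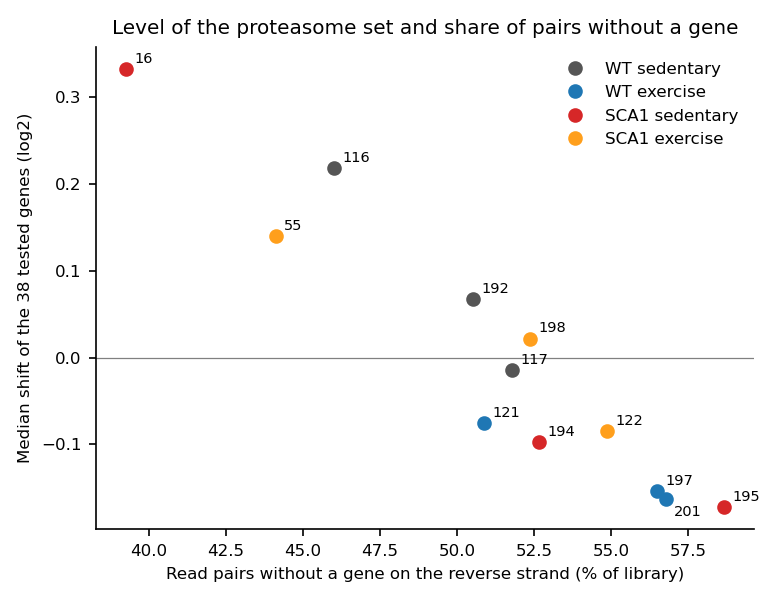
The median shift of the 38 tested genes (log2, vertical) against the percent of read pairs of the library that had no gene on that strand (horizontal), 1 point per library, coloured by group. Mouse 16 is at 39.3% and 0.33, and mouse 195 at 58.7% and −0.17.

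By role median, genes of the core and of the immunoproteasome varied most among the 12 mice. The SD of log2 CPM over the 12 libraries was 0.38 for Psmb8, 0.37 for Psmb5 and Psmb10 and 0.34 for Psmb4, and it was lowest for Psmd11 (0.07), Psmd3 (0.09) and the chaperone Psmd9 (0.09). By role its median fell in the order immunoproteasome 0.37, catalytic 0.28, non-catalytic beta 0.22, alpha ring 0.20, chaperones 0.18, ATPases 0.17 and non-ATPase subunits 0.15. No test was run on this order. It does not hold gene by gene, since the chaperone Psmd10 (0.29) was above Psmb6 (0.27), and Psmb2 was at 0.13. These SDs include mouse 16, whose largest differences from its group mates were in Psmb5, Psmb10, Psmb8 and Psmb4. They were not computed without it. Psmb8 had 14 to 65 counts per library.

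In WT mice the question was whether wheel running went with a change in proteasome genes. In WT exercise against WT sedentary mice 37 of the 38 tested genes had a negative log2FC, with a median of −0.24 and a range of −0.49 to 0.01, where 50.0% of all tested genes were negative and their median was 0.00. None was a DEG by edgeR, with a lowest adjusted p of 0.706, and no gene of the whole table was called (0.0%). In that fit 3 genes (Psmd8, Psma6 and Psma4) had an unadjusted p under 0.05, all lower, against 4.69% of all genes in either direction and 1.91% lower. DESeq2 also called none (0.182% of all genes) and gave 3 with an unadjusted p under 0.05 (3.16% of all genes). The groups did not overlap in 20 of the 38 genes, all lower in WT exercise mice, where 11.1% of all tested genes were lower without overlap.

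By role, the median log2FC in WT exercise against WT sedentary mice was −0.35 for the 3 catalytic subunits, −0.29 for the immunoproteasome, −0.28 for the non-catalytic beta subunits, −0.27 for the alpha ring, −0.22 for the ATPases and the chaperones and −0.19 for the non-ATPase subunits. The summed CPM of the 31 constitutive subunits was 1905 ± 159 (SD, n = 3) in WT sedentary and 1628 ± 62.5 in WT exercise mice, with ranges of 1789 to 2087 and 1587 to 1700. The sums did not overlap. In SCA1 mice they were 1824 ± 353 at rest and 1809 ± 156 with exercise, each overlapping both WT groups.

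Psmd8 (chr7:28873612-28880135), a non-ATPase subunit of the lid, was at 83.5, 76.5 and 70.3 CPM in the WT sedentary and 65.4, 61.2 and 56.9 in the WT exercise mice, and at 71.3, 62.3 and 62.9 in the SCA1 sedentary and 66.9, 62.9 and 64.6 CPM in the SCA1 exercise mice. All 3 WT exercise mice were below the lowest WT sedentary mouse. Its log2FC of −0.33 (SE 0.10, 95% interval −0.54 to −0.12) had the lowest p of the set in this comparison, 0.00507 by edgeR, with an adjusted p of 0.706. Psma6, an alpha ring subunit, was at 55.9, 43.7 and 45.6 CPM in the WT sedentary and 41.8, 37.1 and 33.8 in the WT exercise mice, and at 50.2, 33.3 and 41.7 in the SCA1 sedentary and 43.6, 41.5 and 42.6 CPM in the SCA1 exercise mice. The WT groups did not overlap, and the log2FC was −0.37 (SE 0.15, edgeR adjusted p = 0.958).

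The non-catalytic beta subunit Psmb4 (chr3:94781005-94794272) was at 77.1, 64.6 and 71.6 CPM in the WT sedentary and 55.9, 54.2 and 50.7 in the WT exercise mice, and at 108, 69.0 and 49.8 in the SCA1 sedentary and 84.6, 53.0 and 72.6 CPM in the SCA1 exercise mice. The WT groups stood apart, whereas the SCA1 sedentary mice spread by more than both. Its log2FC for exercise in WT mice was −0.41 (SE 0.23) with all groups in 1 fit. Fitted on the 6 WT libraries alone it was −0.40 with an edgeR adjusted p of 0.0487, the only call of the 38 genes in any comparison or alternative, in a fit that called 0.876% of all genes, and it stayed under the log2FC limit of 0.5. In that fit an unadjusted p under 0.05 was found for 22 of the 38, against 16.6% of all genes.

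Markers of other cells differed between the same groups. The summed oligodendrocyte markers were 2869 to 3693 CPM in WT sedentary and 2397 to 2537 in WT exercise mice, with all 4 markers lower and a median log2FC of −0.42, and the summed microglia markers were 69.5 to 79.9 and 60.4 to 65.8 CPM, with all 6 lower and a median of −0.33. The summed choroid plexus markers were 5.66 to 393 CPM in WT sedentary and 778 to 1844 CPM in WT exercise mice. Their part in the result was not tested. With the percent of pairs without a gene as a covariate, added after seeing the data, 34 of 38 genes were still negative, with a median log2FC of −0.10 and 1 unadjusted p under 0.05, against 8.31% of all genes. Without mice 16 and 55, which belong to neither group but enter the shared estimate of spread, the median was −0.24 and 20 genes had an unadjusted p under 0.05, against 13.3% of all genes, with none called. Without WT sedentary mouse 116 the median was −0.16, and the number with an unadjusted p under 0.05 was 1, against 2.55% of all genes.

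In sedentary mice the question was whether the SCA1 genotype went with a change in proteasome genes. In SCA1 sedentary against WT sedentary mice the 38 genes lay on both sides of 0, 16 higher and 22 lower (47.5% of all genes were lower), with a median log2FC of −0.05 and a range of −0.33 to 0.34. None was a DEG by edgeR, with a lowest adjusted p of 0.407, where 0.0344% of all genes were called. In that fit 3 genes (Psma4, Psmd8 and Psmb2) had an unadjusted p under 0.05, all lower, against 10.1% of all genes, 4.55% lower and 5.55% higher, and DESeq2 called none (0.649% of all genes) and gave 2 (6.41%). Groups did not overlap in 2 genes (Psma4 and Psmb2), both lower, against 5.76% of all genes lower without overlap. By role the median log2FC was −0.21 for the alpha ring, −0.16 for the non-catalytic beta subunits, −0.05 for the ATPases, −0.03 for the non-ATPase subunits, 0.03 for the catalytic subunits, 0.07 for the chaperones and 0.32 for the immunoproteasome. This order depended on mouse 16. In the fit without it the medians were −0.40 for the catalytic subunits, −0.37 for the alpha ring and −0.31 for the non-catalytic beta subunits. They were −0.21 for the ATPases and −0.17 for the non-ATPase subunits. No median without mouse 16 is given for the chaperones or the immunoproteasome. With each mouse left out in turn, the log2FC of Psmb10 ran from −0.11 to 0.53. Psmb8 was at 2.30 CPM in mouse 16 and at 0.892 and 1.06 in its group mates, and Psmb9 at 0.565, 0.977 and 0.529.

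Psma4 (chr9:54858066-54866448), an alpha ring subunit with the interferon letters in its promoter, was at 46.6, 38.3 and 37.4 CPM in the WT sedentary and 37.7, 32.0 and 31.5 in the WT exercise mice, and at 34.3, 29.1 and 34.1 in the SCA1 sedentary and 39.1, 38.6 and 33.5 CPM in the SCA1 exercise mice. The sedentary groups did not overlap, and its log2FC was −0.33 (SE 0.12, 95% interval −0.60 to −0.06, edgeR adjusted p = 0.407). Psmb2, a non-catalytic beta subunit, was at 29.2, 25.7 and 28.3 CPM in the WT sedentary and 26.5, 24.95 and 24.1 in the WT exercise mice, and at 25.1, 23.2 and 21.9 in the SCA1 sedentary and 29.6, 24.0 and 25.8 CPM in the SCA1 exercise mice. All 3 SCA1 sedentary mice were below the WT sedentary mice, with a log2FC of −0.24 (SE 0.11, edgeR adjusted p = 0.488). Psmd8 had a log2FC of −0.23 (SE 0.10, edgeR adjusted p = 0.459), and its sedentary groups overlapped.

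This comparison turned on mouse 16. Without it, 36 of the 38 genes were lower in SCA1 sedentary mice, with a median log2FC of −0.23, and 17 had an unadjusted p under 0.05, against 15.6% of all genes and 8.28% lower, with none called. Without mice 16 and 55 the median was −0.21, and 15 genes had an unadjusted p under 0.05, against 20.2% of all genes. Without WT sedentary mouse 116 the median was 0.01 and no gene had an unadjusted p under 0.05, against 5.72% of all genes. With bands of library numbers as a term the median was −0.16, with 34 genes lower and 4 higher, where the median of all genes was −0.01. The direction of the set between genotypes at rest thus depended on the mice and terms in the fit, and it was not tested for the set.

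The Purkinje cell markers were also lower in SCA1 sedentary mice, with all 6 negative and summed levels of 3859 to 5270 CPM against 6483 to 7289 CPM in WT sedentary mice. The granule cell markers were lower too, with all 5 negative and summed levels of 1180 to 1897 CPM against 2011 to 2444 CPM. Their part in the proteasome values was not tested.

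Among the catalytic subunits, Psmb5 (chr14:54850776-54855481), which carries the chymotrypsin-like site, was at 18.4, 15.6 and 18.2 CPM in the WT sedentary and 13.7, 11.5 and 12.003 in the WT exercise mice, and at 28.3, 14.0 and 11.3 in the SCA1 sedentary and 19.6, 13.2 and 15.8 CPM in the SCA1 exercise mice. Psmb6 (chr11:70416183-70418684), with the caspase-like site, was at 61.2, 44.2 and 47.8 CPM in the WT sedentary and 45.8, 36.5 and 40.8 in the WT exercise mice, and at 69.4, 48.8 and 38.2 in the SCA1 sedentary and 56.6, 43.2 and 47.4 CPM in the SCA1 exercise mice. Psmb7 (chr2:38478044-38534099), with the trypsin-like site, was at 73.5, 56.0 and 53.1 CPM in the WT sedentary and 52.7, 46.6 and 43.7 in the WT exercise mice, and at 76.2, 50.0 and 42.0 in the SCA1 sedentary and 71.5, 52.3 and 54.1 CPM in the SCA1 exercise mice. In each of these genes the highest of the 12 libraries was that of mouse 16, and WT exercise mice were below WT sedentary mice without overlap in Psmb5 and Psmb7. The log2FC for exercise in WT mice was −0.49 for Psmb5 (SE 0.28, 95% interval −1.10 to 0.11), −0.32 for Psmb6 and −0.35 for Psmb7, and for genotype at rest it was 0.04, 0.03 and −0.12.

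The immunoproteasome genes stand in for the catalytic subunits 1 by 1. Psmb8 (chr17:34416690-34420428), the counterpart of Psmb5, was at 1.29, 0.598 and 1.51 CPM in the WT sedentary and 0.876, 0.751 and 1.17 in the WT exercise mice, and at 2.30, 0.892 and 1.06 in the SCA1 sedentary and 1.83, 1.17 and 1.5004 CPM in the SCA1 exercise mice. Psmb9 (chr17:34400960-34406738), the counterpart of Psmb6, was at 0.821, 0.513 and 0.981 CPM in the WT sedentary and 0.613, 0.626 and 0.687 in the WT exercise mice, and at 0.565, 0.977 and 0.529 in the SCA1 sedentary and 0.833, 0.334 and 0.943 CPM in the SCA1 exercise mice. Psmb10 (chr8:106662362-106665077), the counterpart of Psmb7, was at 10.6, 7.05 and 9.28 CPM in the WT sedentary and 7.97, 7.64 and 6.26 in the WT exercise mice, and at 17.4, 8.79 and 7.84 in the SCA1 sedentary and 11.9, 7.80 and 8.62 CPM in the SCA1 exercise mice. Mouse 16 was the highest of the 12 for Psmb8 and Psmb10 but not for Psmb9.

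For genotype at rest, Psmb8 had a log2FC of 0.32 (95% interval −0.59 to 1.24), Psmb9 of −0.17 and Psmb10 of 0.34 (SE 0.29, 95% interval −0.28 to 0.96, edgeR adjusted p = 0.718). Without mice 16 and 55 the value for Psmb10 was −0.09. The largest log2FC of the whole set over the 7 comparisons was that of Psmb8 between exercised genotypes, 0.68, with a 95% interval of −0.25 to 1.61.

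As a share of CPM per kilobase of the main transcript, Psmb8 made up 5.97% ± 2.05 of Psmb8 and Psmb5 together in the WT sedentary and 7.02% ± 1.62 in the WT exercise mice, and 7.35% ± 1.29 in the SCA1 sedentary and 8.42% ± 0.28 in the SCA1 exercise mice (SD, n = 3 each). Psmb10 made up 11.6% ± 1.71, 11.9% ± 0.71, 14.8% ± 1.75 and 12.3% ± 0.59 of Psmb10 and Psmb7 together in the same groups. Psmb9 made up 1.15% ± 0.352, 1.19% ± 0.157, 1.06% ± 0.446 and 1.07% ± 0.458 of Psmb9 and Psmb6 together, with all groups overlapping. For Psmb10 each SCA1 sedentary mouse, at 16.8%, 13.45% and 14.2%, was above each mouse of the other groups, the closest being WT sedentary mouse 192 at 13.40%. No test was run on these shares. The summed microglia markers, cells known to express the immunoproteasome, were 58.5 to 121 CPM in SCA1 sedentary and 69.5 to 79.9 CPM in WT sedentary mice, highest in mouse 16, and 121 and 95.7 CPM in mice 16 and 55 against 58.5 to 79.9 elsewhere. The T cell marker Cd3e had 0 counts in 7 of 12 libraries. All 4 T cell markers, at low levels, summed to 2.01 CPM in mouse 16, 1.86 in mouse 116 and 1.59 in mouse 55, against 0.834 to 1.58 CPM elsewhere. Their part in the immunoproteasome values was not tested.

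**Figure D4:**
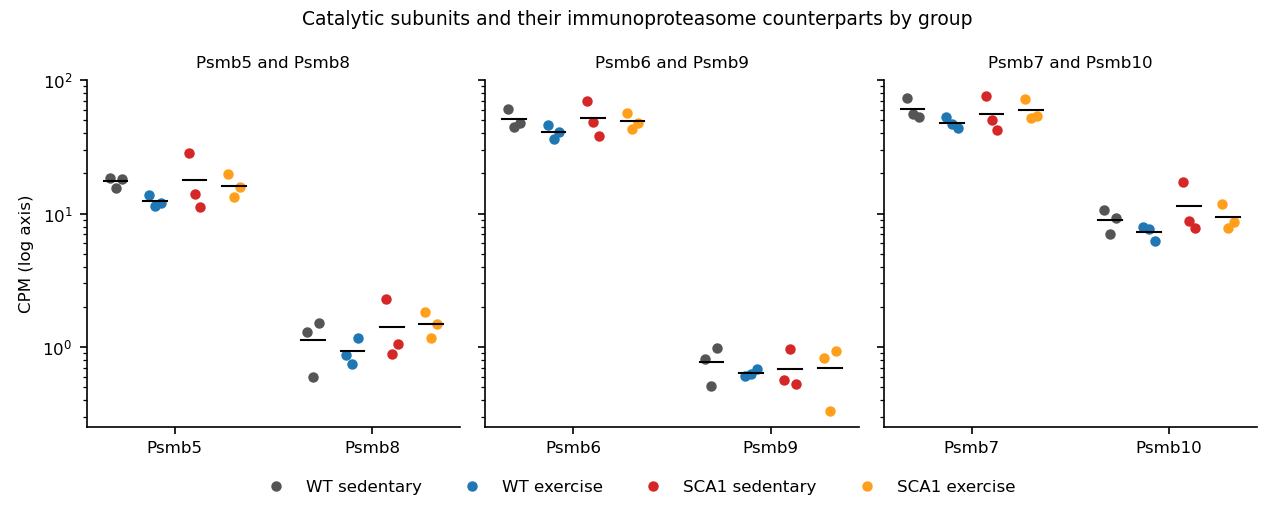
CPM on a log axis of each catalytic subunit beside its immunoproteasome counterpart, with 1 point per mouse in 4 groups of 3. Mouse 16 is the high SCA1 sedentary point in 5 of the 6 genes, for example 28.3 CPM for Psmb5 and 17.4 CPM for Psmb10.

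In SCA1 mice the question was whether wheel running went with a change. In SCA1 exercise against SCA1 sedentary mice 17 of the 38 genes were higher and 21 lower (51.9% of all genes were lower), with a median log2FC of −0.00 and a range of −0.27 to 0.19. None was called by edgeR, as none of all genes was (0.0%), and none had an unadjusted p under 0.05, against 2.17% of all genes. DESeq2 gave the same counts of 0 for the 38 genes, against 0.00285% and 1.4% of all genes. The lowest p in each direction belonged to Psmb2, with a log2FC of 0.17 (SE 0.11, 95% interval −0.07 to 0.42), and to Psmd13, with −0.15 (SE 0.13, 95% interval −0.44 to 0.14). Psmd13, a lid subunit, was at 54.9, 39.9 and 40.5 CPM in the SCA1 sedentary and 42.9, 35.7 and 43.7 CPM in the SCA1 exercise mice, and at 45.7, 40.4 and 43.7 CPM in WT sedentary and 37.3, 37.4 and 34.1 CPM in WT exercise mice. Its SCA1 groups overlapped. Without mouse 16 the median log2FC of the 38 genes was 0.19, with 7 genes at an unadjusted p under 0.05, against 11.2% of all genes, and none called. Without mice 16 and 55 it was 0.09, with 29 genes higher and 9 lower and none called.

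Between exercised genotypes all 38 genes had a positive log2FC, where 50.7% of all genes did, with a median of 0.15 and a range of 0.02 to 0.68. This comparison and that of exercise in WT mice share the WT exercise libraries, which lie low in both. None of the 38 genes was called by edgeR or DESeq2, with no gene of the whole table called by edgeR (0.0%), and 1 gene by edgeR and 1 by DESeq2 had an unadjusted p under 0.05, against 2.93% of all genes by edgeR (1.45% higher). DESeq2 called 0.00854% of all genes and gave 1.94% an unadjusted p under 0.05. Groups did not overlap in 6 genes, all higher in SCA1 exercise mice (Psma3, Psma5, Psmc2, Psmc5, Psmd6 and Psmd12), against 7.32% of all genes higher without overlap. With the percent of pairs without a gene as a covariate, 30 of 38 genes were positive, with a median of 0.07, and without mice 16 and 55 it was 34 of 38, with a median of 0.11 and 1 at an unadjusted p under 0.05, against 6.88% of all genes.

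Psmd6, a lid subunit, had the lowest p between exercised genotypes. It was at 44.7, 36.8 and 40.4 CPM in the WT sedentary and 35.3, 31.5 and 32.4 in the WT exercise mice, and at 47.5, 31.5 and 36.5 in the SCA1 sedentary and 43.7, 39.2 and 42.4 CPM in the SCA1 exercise mice, with a log2FC of 0.34 (SE 0.14, 95% interval 0.03 to 0.64, edgeR adjusted p = 0.960). All 3 SCA1 exercise mice were above all WT exercise mice. Psma3, the lowest alpha subunit per kilobase of merged exon, was at 78.2, 64.1 and 65.9 CPM in the WT sedentary and 60.5, 55.4 and 60.3 in the WT exercise mice, and at 68.8, 53.3 and 56.3 in the SCA1 sedentary and 61.8, 63.2 and 64.0 CPM in the SCA1 exercise mice. Its exercised groups were separated by a narrow gap, with a log2FC of 0.10.

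Whether exercise acted unlike in the genotypes was tested as an interaction over all 12 libraries. All 38 genes had a positive interaction log2FC (48.9% of all genes did), meaning a log2FC for exercise that was higher in SCA1 than in WT mice, with a median of 0.23 and a range of 0.00 to 0.46. None was called by edgeR or DESeq2, as no gene of the whole table was by edgeR (0.0%), and 2 genes by each tool had an unadjusted p under 0.05, against 3.78% of all genes by edgeR (1.57% higher), and 2.56% by DESeq2, which called 0.0057%. They were Psma4, with an interaction of 0.46 (SE 0.18, 95% interval 0.08 to 0.85, edgeR adjusted p = 1.00), and Psmd8, with 0.31 (SE 0.14). By role the median interaction was 0.35 for the catalytic subunits, 0.32 for the alpha ring, 0.31 for the non-catalytic beta subunits, 0.30 for the immunoproteasome, 0.21 for the ATPases and chaperones and 0.12 for the non-ATPase subunits. Without mouse 16 the median was 0.44 and 23 genes had an unadjusted p under 0.05, against 16.0% of all genes. Without mice 16 and 55 it was 0.34 with 19 such genes, against 14.8% of all genes. Without WT sedentary mouse 116 it was 0.14 with 0 such genes, and without WT exercise mouse 197 or 201 it was 0.22 with 0. With the percent of pairs without a gene as a covariate it was 0.11 with 3 such genes. The shares of all genes in the fits with 0 and 3 are not given here. None of the 38 genes was called in those fits. The markers of Purkinje cells (6 of 6) and granule cells (5 of 5) also had a positive interaction, with medians of 0.56 and 0.35, and their part in the result was not tested.

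**Figure D5:**
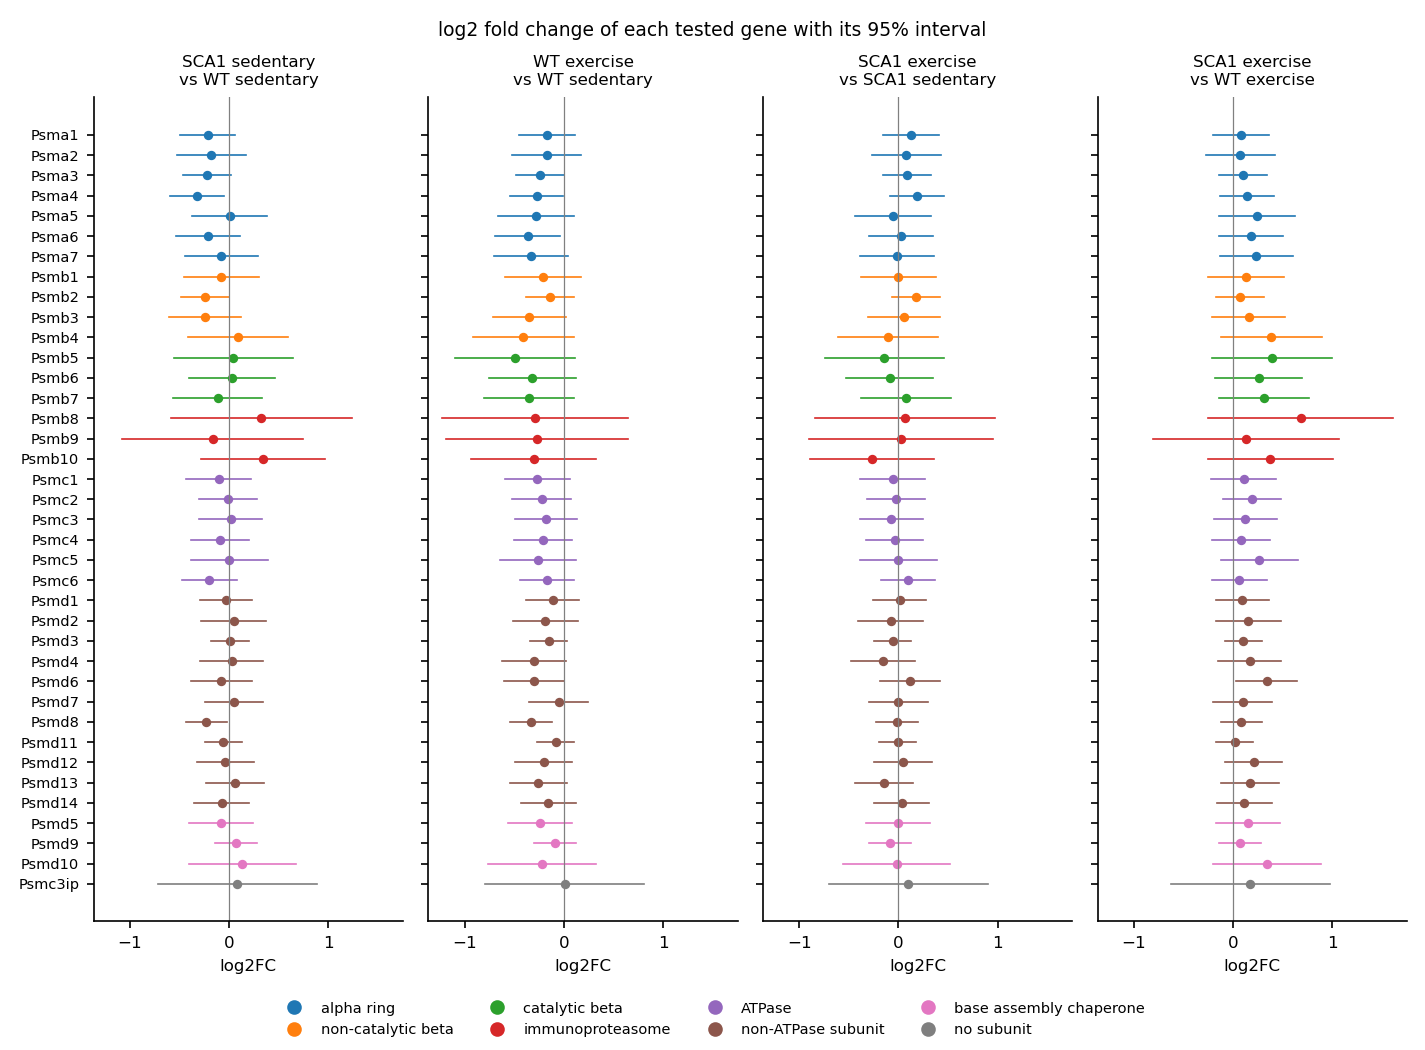
log2FC of each tested gene with its 95% interval from edgeR, 1 panel per comparison and genes ordered and coloured by role. In WT exercise against WT sedentary mice all genes but Psmc3ip lie left of 0, with a median of −0.24, and between exercised genotypes all 38 lie right of 0, with a median of 0.15.

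Over both activity groups, SCA1 against WT mice gave 26 genes higher and 12 lower (47.6% of all genes were lower), with a median log2FC of 0.07, none called by edgeR or DESeq2 where edgeR called 0.143% of all genes, and none with an unadjusted p under 0.05 by either tool, against 9.81% of all genes by edgeR. DESeq2 called 0.74% of all genes and gave 6.49% an unadjusted p under 0.05. Psmb10 had the lowest p, with a log2FC of 0.36 (SE 0.20, 95% interval −0.09 to 0.80, edgeR adjusted p = 0.579). Without mice 16 and 55 the median turned to −0.05, with 30 genes lower. Over both genotypes, exercise against sedentary mice gave 36 genes lower and 2 higher (51.1% of all genes were lower), with a median of −0.12 and none called by edgeR or DESeq2, as no gene was by edgeR (0.0%). By edgeR 2 genes had an unadjusted p under 0.05, against 3.54% of all genes and 1.39% lower, and by DESeq2 3 did, against 2.38% of all genes, of which it called 0.0171%. Without mouse 16 the median was −0.03, with 27 genes lower and 11 higher, and without mice 16 and 55 it was −0.06, with 30 lower and none called in either fit. The genes at an unadjusted p under 0.05 in the edgeR fit of all mice were Psmd8, with a log2FC of −0.17 (SE 0.07, adjusted p = 0.945), and Psmd4, a ubiquitin receptor, with −0.23.

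Of the non-ATPase subunits with the most and the least RNA per kilobase of merged exon, Psmd2 was at 193, 163 and 183 CPM in the WT sedentary and 160.1, 153 and 159.9 in the WT exercise mice, and at 235, 163 and 158 in the SCA1 sedentary and 201, 152 and 173 CPM in the SCA1 exercise mice. Psmd14, the enzyme that cuts ubiquitin chains from the substrate, was at 51.7, 44.4 and 46.8 CPM in the WT sedentary and 44.7, 41.9 and 41.7 in the WT exercise mice, and at 54.4, 36.7 and 44.7 in the SCA1 sedentary and 47.9, 44.4 and 46.5 CPM in the SCA1 exercise mice. The WT groups were apart in Psmd2 and overlapped in Psmd14, and mouse 16 was the highest in both.

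Among the ATPases, which unfold the substrate, Psmc3 was at 91.3, 79.5 and 80.2 CPM in the WT sedentary and 78.2, 71.8 and 71.8 in the WT exercise mice, and at 105, 79.7 and 69.0 in the SCA1 sedentary and 91.2, 70.2 and 80.3 CPM in the SCA1 exercise mice. Psmc2 was at 63.4, 54.9 and 61.3 CPM in the WT sedentary and 53.6, 48.1 and 52.1 in the WT exercise mice, and at 73.3, 54.7 and 49.7 in the SCA1 sedentary and 63.2, 53.9 and 58.0 CPM in the SCA1 exercise mice. In both, the WT groups did not overlap, and mouse 16 stood highest.

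The other genes of the pathway were taken from a list of 44, all tested, that covered assembly factors, activators, bound enzymes, shuttle factors, ubiquitin genes, transcription regulators and antigen presentation. None was called by edgeR in any comparison, and the number with an unadjusted p under 0.05 was 7 of 44 for genotype at rest (6 higher) against 10.1% of all genes, 4 for exercise in WT mice against 4.69%, 0 for exercise in SCA1 mice against 2.17%, 1 between exercised genotypes against 2.93% and 4 for the interaction against 3.78%. All 5 assembly factors were lower in WT exercise than in WT sedentary mice, with a median log2FC of −0.32, and groups did not overlap in 4 of them, against 11.1% of all genes lower without overlap. Pomp, the maturation factor of the core particle, was at 45.7, 38.1 and 42.0 CPM in the WT sedentary and 31.2, 32.0 and 32.2 in the WT exercise mice, and at 44.7, 33.8 and 30.9 in the SCA1 sedentary and 41.3, 32.0 and 37.2 CPM in the SCA1 exercise mice. Its log2FC for exercise in WT mice was −0.40 (SE 0.14, edgeR adjusted p = 0.958), and the WT groups stood well apart. Psmg2, an assembly chaperone of the alpha ring, had a log2FC of −0.52 for genotype at rest (SE 0.16, edgeR adjusted p = 0.320), without overlap.

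Psme1, the alpha subunit of a proteasome activator induced by interferon, was at 11.4, 7.99 and 9.21 CPM in the WT sedentary and 7.84, 7.05 and 9.25 in the WT exercise mice, and at 19.4, 14.0 and 11.0 in the SCA1 sedentary and 12.8, 9.17 and 12.8 CPM in the SCA1 exercise mice. The highest values were in SCA1 mice, with overlap between genotypes. Its log2FC was 0.63 for genotype at rest (SE 0.23, edgeR adjusted p = 0.374) and 0.58 over both activity groups (SE 0.16, edgeR adjusted p = 0.231). Nfe2l1 was at 348 and 299 CPM in mice 16 and 55 and at 181 to 224 CPM in the others, and its part in the proteasome levels of those mice was not tested.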

How the data were processed

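The authors extracted cerebellar RNA, depleted ribosomal RNA, made stranded libraries (NEBNext Ultra II Directional) and deposited the read-pair counts per gene that STAR wrote, unnormalized, 1 table per mouse with 56941 genes. The submitters' processing notes name FastQC 0.11.9, fastp 0.24.0, STAR 2.7.10a and GRCm39, and the annotation release is not given in the sources used here. By the study's methods, 2 RNA samples of lower integrity had changed fragmentation and amplification, and the mice are not given in the sources used here.

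Symbols and positions came from GENCODE M39, matching 56323 identifiers by Ensembl ID and leaving 618. Reverse-strand counts were filtered with filterByExpr (20341 genes) and fitted in edgeR 4.0.16 (R 4.3.3) by 1 quasi-likelihood model of the 4 groups with TMM library sizes, Benjamini-Hochberg adjustment over all genes and 7 comparisons. Reads of 5 Psm pseudogenes stood at 0 to 5 counts. Lengths were merged exons or the canonical transcript, and promoter windows were read from GRCm39. In all, 22 alternatives were run (DESeq2 1.42.0, RLE factors, 2 filters, unstranded counts, 2-group fits, mice 16 and 55 left out, library number bands, a chromosome Y covariate, each of 12 mice left out and, added after seeing the data, the percent of pairs without a gene). The edgeR test of SCA1 sedentary against WT sedentary mice was run on simulated counts with known fold changes. No shift of a whole library was simulated.

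The members, lists and tests were chosen with earlier results of these data known. Values per library are given for catalytic and immunoproteasome genes, the highest and lowest gene per kilobase of merged exon in the alpha ring, both beta groups, the ATPases and the non-ATPase subunits, the lowest p in each direction and every called gene, and for other lists for at most 3 genes each. Of the genes the rule names, 1 is not reported here.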

Additional observations from a re-analysis of the deposited data

How the results depend on the processing

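No paired analysis was possible because the groups share no replicate numbers. Over 22 alternatives the only called gene was Psmb4, 1 call in WT exercise against WT sedentary mice with edgeR on the 2 groups compared. The median log2FC of the tested genes for SCA1 against WT sedentary mice was −0.21 without mice 16 and 55, and from −0.23 to 0.030 with each mouse left out in turn. Under the same leave-one-out fits it ran from −0.28 to −0.16 for exercise in WT mice, −0.084 to 0.19 for exercise in SCA1 mice, 0.11 to 0.18 between exercised genotypes, 0.11 to 0.44 for the interaction, −0.02 to 0.09 for genotype over both activity groups and −0.18 to −0.03 for exercise over both genotypes. Of the named genes, 13 values changed sign under an alternative and 246 did not. Psmb10 for genotype at rest was −0.092 without mice 16 and 55 and from −0.11 to 0.53 with each mouse left out. Psmc3ip for exercise in WT mice was −0.11 with unstranded counts, −0.057 with bands of library numbers, −0.086 with the chromosome Y covariate, −0.26 with the percent of pairs without a gene and −0.064 to 0.075 with each mouse left out. Psmd13 for exercise in SCA1 mice ran from −0.22 to 0.020, and Psmb2 for exercise over both genotypes from −0.017 to 0.043. The cause was not tested. With 3 mice a group, the pooled SD of the shift of a library within groups was 0.160, against medians between groups of −0.24 to 0.23. Levels per kilobase moved with the length used for 28 of 31 subunits.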

Other observations

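Of the 44 pathway genes, 12 belong to antigen presentation by MHC class I and to the interferon response. In SCA1 sedentary against WT sedentary mice 10 of the 12 were higher, with a median log2FC of 0.37 where the median of all tested genes was 0.02, and 5 had an unadjusted p under 0.05, all higher, where 5.55% of all genes did. None was called by edgeR. The summed CPM of the 12 overlapped, at 218 to 261 in SCA1 sedentary and 215 to 258 in WT sedentary mice, and was highest in mouse 16. Tap2, a subunit of the peptide transporter, was at 10.9, 9.27 and 9.47 CPM in the WT sedentary and 10.03, 11.02 and 9.94 in the WT exercise mice, and at 17.6, 16.6 and 12.6 in the SCA1 sedentary and 13.5, 11.8 and 13.4 CPM in the SCA1 exercise mice. Each SCA1 mouse was above each WT mouse, with a log2FC of 0.66 at rest (SE 0.15, edgeR adjusted p = 0.168) and 0.49 over both activity groups (SE 0.11, edgeR adjusted p = 0.120). Nlrc5, the transactivator of MHC class I genes, was at 1.36, 1.28 and 1.09 CPM in the WT sedentary and 2.28, 1.92 and 2.87 in the WT exercise mice, and at 1.59, 2.85 and 3.08 in the SCA1 sedentary and 1.90, 1.63 and 2.19 CPM in the SCA1 exercise mice. Its WT sedentary group lay below the other 3, with an interaction of −1.30 (edgeR adjusted p = 1.00).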
